A study of Mus musculus with 9 samples.

Results

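The immunity-related GTPases (IRGs) are interferon-induced proteins of cell-autonomous defence, and 9 genes of the family are described here: Irgm1, Irgm2, Igtp, Iigp1, Tgtp1, Tgtp2, Ifi47, Gm4951 and Gm12250. They were taken as a list of names, not by their values, and all 9 were found among the 55487 genes of the count table. RNA was sequenced from B16F10 cells, a metastatic subline of the C57BL/6 mouse melanoma B16, after 6 h of treatment. The groups were IFNγ (50 ng/mL) plus FK866 (50 nM), IFNγ alone (50 ng/mL), and Media without either agent, with 3 libraries each. FK866 blocks NAMPT, an enzyme that recycles nicotinamide into NAD, and no group received it without IFNγ. The treatment notes speak of mouse or human IFNγ and name a mouse product. Every title also carries the word Control with the number 3, 4 or 5, in the treated groups as well, and what these numbers stand for is not stated. Nothing in the labels says whether the libraries came from separate cultures, so p-values measure the spread between these libraries, which may be technical. The series text names a 10x platform, but the table holds 1 column per library and no cells, and it was treated as bulk RNA. In bulk samples, fewer expressing cells and less RNA per cell cannot be told apart.

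IRG proteins bind GTP and act on the membranes of vacuoles that enclose intracellular parasites and bacteria. The IRGM subgroup, here Irgm1, Irgm2 and Igtp (also called Irgm3), sits on the cell's own membranes and holds the other members in their inactive form there. The effector members, among them Iigp1 (Irga6), Tgtp1 (Irgb6), Ifi47 (Irgd) and Gm12250 (Irgb10), load onto pathogen vacuoles, which are then disrupted. In mice the genes are switched on by interferon through JAK-STAT and IRF signalling, whose transcription factors bind DNA elements called GAS and ISRE.

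In the GENCODE M21 annotation of GRCm38, 7 of the 9 genes lie on chromosome 11. Irgm1 (48861968 to 48871683, minus strand), Tgtp1 (48985327 to 48994172, minus strand), Tgtp2 (49057194 to 49064206, minus strand) and Ifi47 (49076587 to 49096974, plus strand) form one group there. Gm12250 (58187739 to 58189012), Igtp (58199556 to 58207591) and Irgm2 (58199618 to 58222782) form another, all on the plus strand. The 8 genes annotated with a coding sequence have a coding length of 1218 to 1269 bp, which lies in 1 exon block in Iigp1, Tgtp1, Tgtp2, Ifi47 and Gm4951 and in 2 in Irgm1, Irgm2 and Igtp. Gm12250 is annotated as a processed pseudogene of 1274 bp by GENCODE and as protein coding by RefSeq, whose gene starts upstream at 58183843.

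Promoter windows from 250 bases before to 50 bases after the gene start were at hand for 7 of the 9 genes, from RefSeq on GRCm38.p6. They were searched on both strands for GAS, spelled TTCNNNGAA, and for ISRE, spelled as GAAA, any 2 bases and GAAA. GAS was found in 5 of the 7 windows, ISRE in 6, and both in 5, against 8.3%, 3.44% and 0.454% of the 32851 windows in the table. Ifi47 held neither spelling in this window. The stretches below are the 60 bases around the matches, shown because they let the windows be compared base by base. Capitals mark GAS or ISRE matches.
Irgm2: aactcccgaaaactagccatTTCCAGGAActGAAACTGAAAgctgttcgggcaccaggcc
Igtp: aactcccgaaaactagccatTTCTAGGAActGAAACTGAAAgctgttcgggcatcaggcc
Tgtp1: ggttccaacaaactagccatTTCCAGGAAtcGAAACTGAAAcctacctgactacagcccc
Tgtp2: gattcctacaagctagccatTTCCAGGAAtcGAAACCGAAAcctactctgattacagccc
Gm12185: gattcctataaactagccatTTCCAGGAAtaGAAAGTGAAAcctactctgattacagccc
Gm12250: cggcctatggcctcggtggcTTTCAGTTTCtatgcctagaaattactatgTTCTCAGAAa
Irgm1: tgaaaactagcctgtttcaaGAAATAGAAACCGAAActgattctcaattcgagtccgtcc
They lie at chr11:58214882-58214941 (Irgm2, plus strand), chr11:58199491-58199550 (Igtp, plus), chr11:48992295-48992354 (Tgtp1, minus), chr11:49064254-49064313 (Tgtp2, minus), chr11:48927229-48927288 (Gm12185, minus), chr11:58183732-58183791 (Gm12250, plus) and chr11:48871411-48871470 (Irgm1, minus). Gm12185 is a further IRG gene of this locus and is shown for comparison.

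In Irgm2, Igtp, Tgtp1, Tgtp2 and Gm12185 the GAS match was followed after 2 bases by the ISRE match. This joint spelling was set after these windows had been seen, and those 5 genes were the holders among all 32851 windows (0.0152%). Over the 60 bases, Irgm2 and Igtp were identical at 96.7% of positions, Tgtp2 and Gm12185 at 91.7%, and Tgtp1 and Tgtp2 at 76.7%. Gm12250 held the GAS match between 2 ISRE matches on the reverse strand, of which the one nearer the start lies past the stretch shown. Irgm1 held 2 ISRE matches that overlap each other and no GAS match. A match describes letters and shows no binding.

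**Figure D1:**
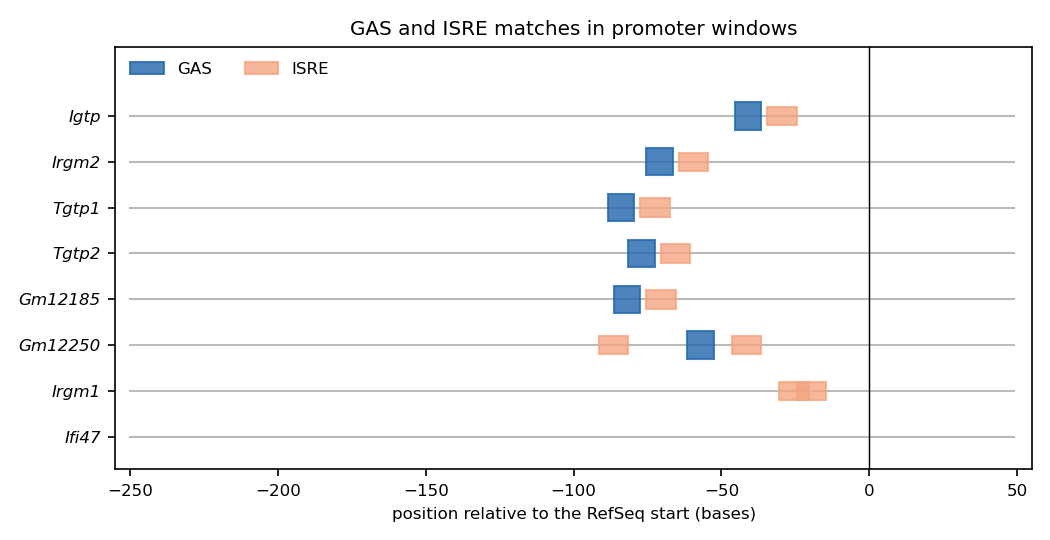
GAS (blue) and ISRE (orange) matches in the promoter windows of 7 IRG genes and the neighbouring gene Gm12185, by distance in bases from the RefSeq start (vertical line at 0). In 5 windows a GAS match lies 2 bases upstream of an ISRE match, with the GAS starting between 88 and 45 bases before the start, and the Ifi47 window holds no match.

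Library totals ran from 15317003 to 18466972 counts. The melanocyte markers Mitf, Sox10, Pmel, Tyr, Tyrp1, Dct and Mlana were all detected, with a summed level of 14980 to 17080 CPM with IFNγ plus FK866, 15540 to 17190 CPM with IFNγ and 16880 to 19020 CPM in Media. Within this list Mitf was lower with IFNγ, at 342 to 401 CPM with IFNγ plus FK866 and 266 to 374 CPM with IFNγ, against 753 to 884 CPM in Media (log2 fold change of IFNγ over Media -1.27, edgeR adjusted p = 0.000773). Of 10 leukocyte markers, Ptprc, Itgam, Adgre1, Csf1r and Nkg7 were among those with 0 counts in every library, and the list summed to 4.98 to 9.78, 3.91 to 10.5 and 4.18 to 12.2 CPM in the same 3 groups. Cd68 made up most of that sum, at 4.26 to 9.21, 3.08 to 9.75 and 3.64 to 11.3 CPM, and Cd79a and Lyz2 were detected below 1 CPM in each group. The 7 fibroblast and endothelial markers summed to 6.66 to 10.1, 7.13 to 8.59 and 10.98 to 13.5 CPM, and Col1a2 among them was lower with IFNγ than in Media (log2 fold change -1.69, edgeR adjusted p = 0.00952). The part of these markers in the IRG response was not tested. Levels below are CPM, counts scaled to a common library size with TMM, and libraries are given in the order Control 3, 4, 5.

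IFNγ raised all 9 IRG genes, 8 of which had at most 1.42 CPM in any Media library. Together they took 79882, 102184 and 69170 counts in the libraries with IFNγ plus FK866 and 67811, 83028 and 80433 with IFNγ, against 239, 501 and 383 in Media. As a share of all counts this was 0.441% to 0.553% with IFNγ plus FK866, 0.436% to 0.516% with IFNγ and 0.00154% to 0.00282% in Media. The 95% Wilson interval reached from 0.00136% to 0.00175% for the lowest Media library and from 0.55% to 0.557% for the highest treated library, and covers counting error only. All 9 genes were called higher with IFNγ than in Media at an edgeR adjusted p below 0.05, where 2.8% of the 15237 genes tested were called higher and 0.499% lower. All 9 were also called higher with IFNγ plus FK866 than in Media, where 2.76% of genes were and 0.597% were lower. Both comparisons share the Media libraries. Irgm1 and Irgm2 had at least 10 counts in every Media library. The other 7 genes passed the filter on low counts through the IFNγ libraries alone, so a difference from Media came with passing it.

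Irgm1, the IRGM member known for resistance to mycobacteria and for effects on mitochondria and autophagy, was the member with a clear level before treatment. It had 1172, 1613 and 1414 CPM with IFNγ plus FK866 and 1237, 1601 and 1545 CPM with IFNγ, against 13.3, 25.0 and 20.3 CPM in Media. No treated library came near a Media library, and the treated groups overlapped. The log2 fold change was 6.22 ± 0.27 (SE) for IFNγ over Media (edgeR adjusted p = 6.63e-07) and 6.16 ± 0.27 for IFNγ plus FK866 over Media.

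Irgm2, which resides mainly at the Golgi, had 692, 706 and 556 CPM with IFNγ plus FK866 and 695, 722 and 584 CPM with IFNγ, against 0.879, 1.42 and 0.716 CPM in Media. Its Media values rest on 14, 26 and 12 reads. The log2 fold change of IFNγ over Media was 9.35 ± 0.26 (SE; edgeR adjusted p = 2.16e-08). Igtp, an endoplasmic reticulum member required in mice for resistance to Toxoplasma gondii, had 1170, 1187 and 954 CPM with IFNγ plus FK866 and 1177, 1133 and 1007 CPM with IFNγ, against 0.314, 0.384 and 0.418 CPM in Media. Igtp thus stood on 19 reads over the Media group and on 53482 reads with IFNγ, a ratio of 2960 after scaling (95% counting interval 1890 to 4910).

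Among the effectors, Iigp1 and Tgtp1 had 0 counts in all 3 Media libraries, which allows up to 0.164 to 0.188 CPM in a library. Iigp1 had 654, 798 and 596 CPM with IFNγ plus FK866 and 644, 692 and 610.2 CPM with IFNγ, at least 11000-fold above a floor of 3 counts over the Media group for IFNγ. Tgtp1 had 198, 306 and 284 CPM with IFNγ plus FK866 and 179, 279.9 and 296 CPM with IFNγ, at least 4310-fold above the same floor for IFNγ. Fitted fold changes of these genes depend on the prior count and are not given.

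Tgtp2 had 330.5, 361 and 407 CPM with IFNγ plus FK866 and 299, 314 and 416 CPM with IFNγ, and a single read in the Media library of Control 4. The IFNγ to Media ratio was 17600, with a counting interval of 3150 to 694000. Tgtp1 and Tgtp2 are near-copies: 79.4% of the 50-base words in the transcripts of Tgtp1 also occur in Tgtp2, and 85.8% of those of Tgtp2 in Tgtp1. How the counting treated reads that match both is not given in the sources used here, so the division between these genes is uncertain. Their sum does not depend on that division, but it is too low if such reads were dropped. The sum was 529, 666 and 691 CPM with IFNγ plus FK866 and 478, 594 and 712 CPM with IFNγ.

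Ifi47 had 119, 202 and 210.3 CPM with IFNγ plus FK866 and 116, 186 and 197 CPM with IFNγ, against 0.314, 0.274 and 1.02 CPM in Media. In every group the Control 5 library was the highest. Its log2 fold change of IFNγ over Media was 8.27 ± 0.46 (SE; edgeR adjusted p = 5.24e-06), the widest error among the members with more than 1 Media read. Within the Control numbers 3, 4 and 5 the difference was 8.53, 9.41 and 7.60, where the Media libraries held 5, 5 and 17 reads.

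Gm12250, whose product Irgb10 gathers on bacterial membranes together with guanylate-binding proteins, had 104, 119.7 and 92.2 CPM with IFNγ plus FK866 and 97.4, 110.2 and 92.8 CPM with IFNγ, against 0.188, 0.329 and 0.418 CPM in Media. Its log2 fold change of IFNγ over Media was 8.28 ± 0.22 (SE; edgeR adjusted p = 1.93e-08). Gm4951, an IRG gene listed by RefSeq under the family name Ifgga2, stayed far below the others. It had 21.7, 21.4 and 15.3 CPM with IFNγ plus FK866 and 21.1, 19.7 and 15.4 CPM with IFNγ, and 0 counts in Media, at least 316-fold above the floor for IFNγ. Over the 9 members the median log2 fold change of IFNγ over Media was 9.35 with the genes of 0 or 1 Media reads at their bound, and 11.30 as fitted, beside -0.01 over all genes tested. The fitted median is the value of Gm4951, with 0 counts in Media, and so depends on the prior count.

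**Figure D2:**
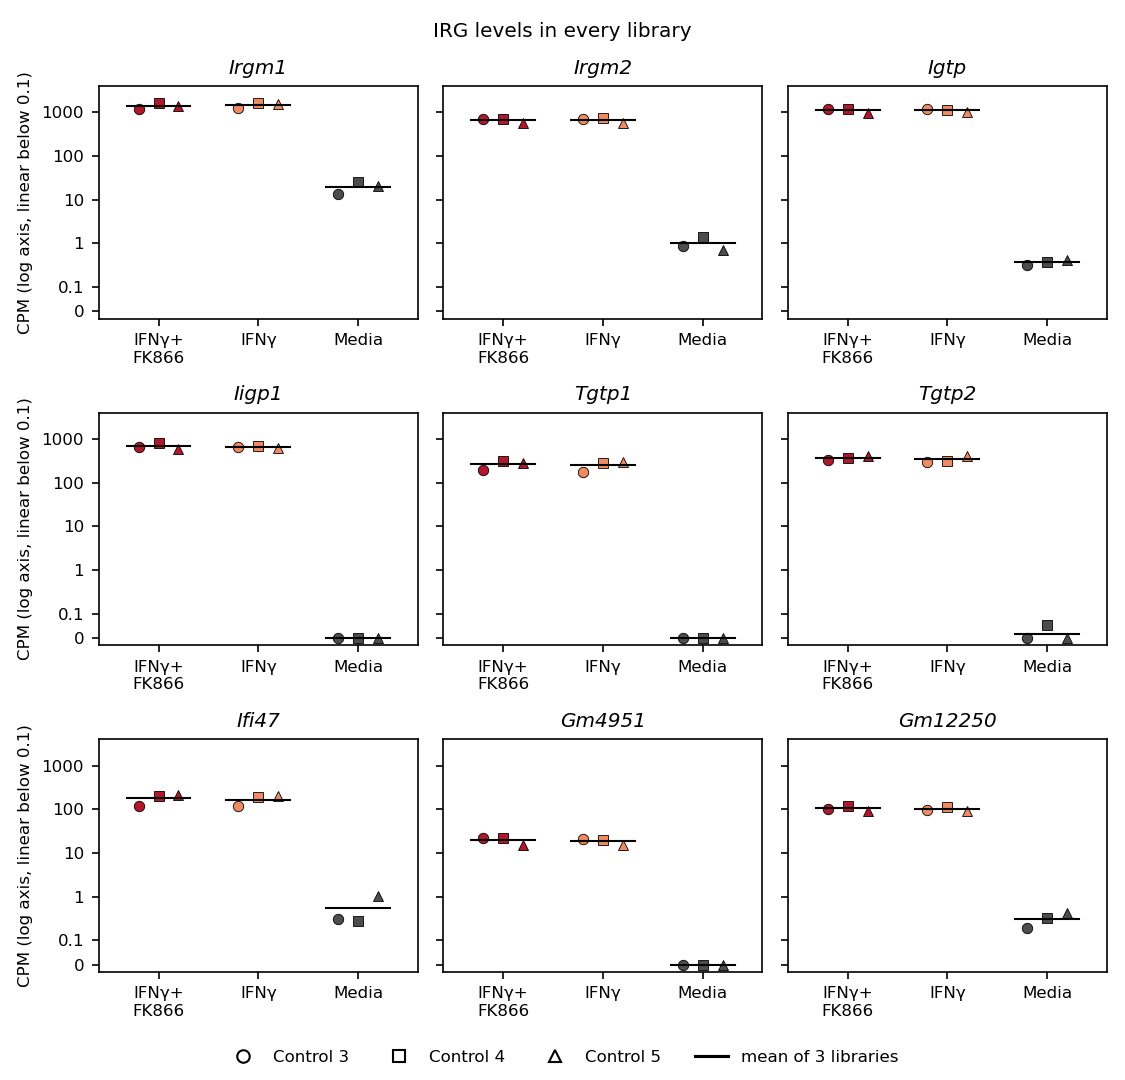
CPM of the 9 IRG genes in every library (log axis, linear below 0.1), with IFNγ plus FK866, IFNγ and Media from left to right. Symbols mark the Control number and the line is the mean of 3 libraries. Both IFNγ groups lie together and far above Media, where Irgm1 keeps 13.3 to 25.0 CPM and Iigp1, Tgtp1 and Gm4951 are at 0.

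Divided by exon length, the members spanned a wide range of levels. Igtp was highest with 546 ± 64.3 CPM per kb with IFNγ plus FK866 and 547 ± 43.6 CPM per kb with IFNγ (SD, n = 3 each). Irgm1 followed with 241 ± 37.9 and 252 ± 33.7 CPM per kb, and Irgm2 with 177 ± 22.5 and 181 ± 19.8 CPM per kb, in the same 2 groups. As counted, the 3 IRGM genes thus led the family per length in both IFNγ groups. Their libraries did not overlap with those of the next gene in the order. Tgtp1 and Tgtp2 share most of their 50-base words. If reads matching both were dropped, their levels and places in this order are too low. Tgtp2 (125 ± 13.1 and 117 ± 21.6 CPM per kb) and Iigp1 (117 ± 17.9 and 111 ± 7.06 CPM per kb) overlapped. So did Gm12250 (82.5 ± 10.8 and 78.6 ± 7.07 CPM per kb), Tgtp1 (81.9 ± 17.8 and 78.6 ± 19.8 CPM per kb) and Ifi47 (71.6 ± 20.5 and 67.2 ± 17.9 CPM per kb). Gm4951 was last at 7.37 ± 1.37 and 7.08 ± 1.12 CPM per kb, clear of all others.

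In Media the order was another one. Irgm1 stood alone at 3.36 ± 1.01 CPM per kb (SD, n = 3), while Irgm2, Gm12250, Ifi47 and Igtp ran from 0.273 to 0.184 CPM per kb, each overlapping the next. With IFNγ, Igtp ranked 60 and Irgm1 ranked 135 among 15214 genes by CPM per kb, and Gm4951 ranked 6056. These levels use GENCODE exon lengths, which may differ from those behind the counts, since the annotation release used for counting is not given in the sources used here. Igtp and Irgm2 share 162 bp of exon on the same strand, 8.0% of Igtp and 4.4% of Irgm2.

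The 2 members outside chromosome 11, Gm4951 (60212080 to 60247820) and Iigp1 (60376027 to 60392634), lie on the plus strand of chromosome 18. Other IRG and IRG-like genes lie near the members on chromosome 18 and in the Irgm1 to Ifi47 group on chromosome 11. Of 25 further genes annotated within 50 kb of a member, 14 passed the filter, 8 were called higher with IFNγ than in Media (2.8% of all genes tested) and 0 lower. Of these 8, Olfr56 had 5 Media counts and the other 7 had 0, so they too passed the filter through the IFNγ libraries, and a difference from Media came with passing it. Gm12185, the gene that shares the promoter stretch shown above, had 147 ± 16.6 CPM with IFNγ plus FK866 and 141 ± 20.8 CPM with IFNγ (SD, n = 3 each) and 0 counts in Media, at least 2410-fold above the floor for IFNγ. Its annotated exons share 223 bp with Tgtp1. On chromosome 18, Gm4841 and F830016B08Rik, listed by RefSeq as Ifgga3 and Ifgga4, also had 0 counts in Media and were at least 441-fold and 621-fold above the floor with IFNγ.

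The other genes called higher were 9930111J21Rik1, 9930111J21Rik2, Olfr56 and the pseudogenes Gm5970 and BC023105. Olfr56, an olfactory receptor gene annotated across Tgtp1, Tgtp2 and Ifi47, had 1138 counts with IFNγ against 5 in Media, and it shares 111 bp of exon with Ifi47. The call of 9930111J21Rik1 rests on 77 counts with IFNγ. It was lost without the Media library of Control 4 (edgeR adjusted p = 0.0544), the Media library of Control 5 (0.051) or the IFNγ library of Control 4 (0.0554).

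The other 6 tested neighbours were not called. For Trim41 the log2 fold change of IFNγ over Media was 0.00, for Trim7 -0.29, for Gm12184 -0.36 and for Mrpl22 0.18. Gemin5, beside Gm12250, had 0.49 ± 0.12 (SE; edgeR adjusted p = 0.0766) and was called with the Control number as a block (edgeR adjusted p = 5.19e-06). Psme2b had 1.97 ± 0.92 (edgeR adjusted p = 0.541; 0.00668 with the block).

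**Figure D3:**
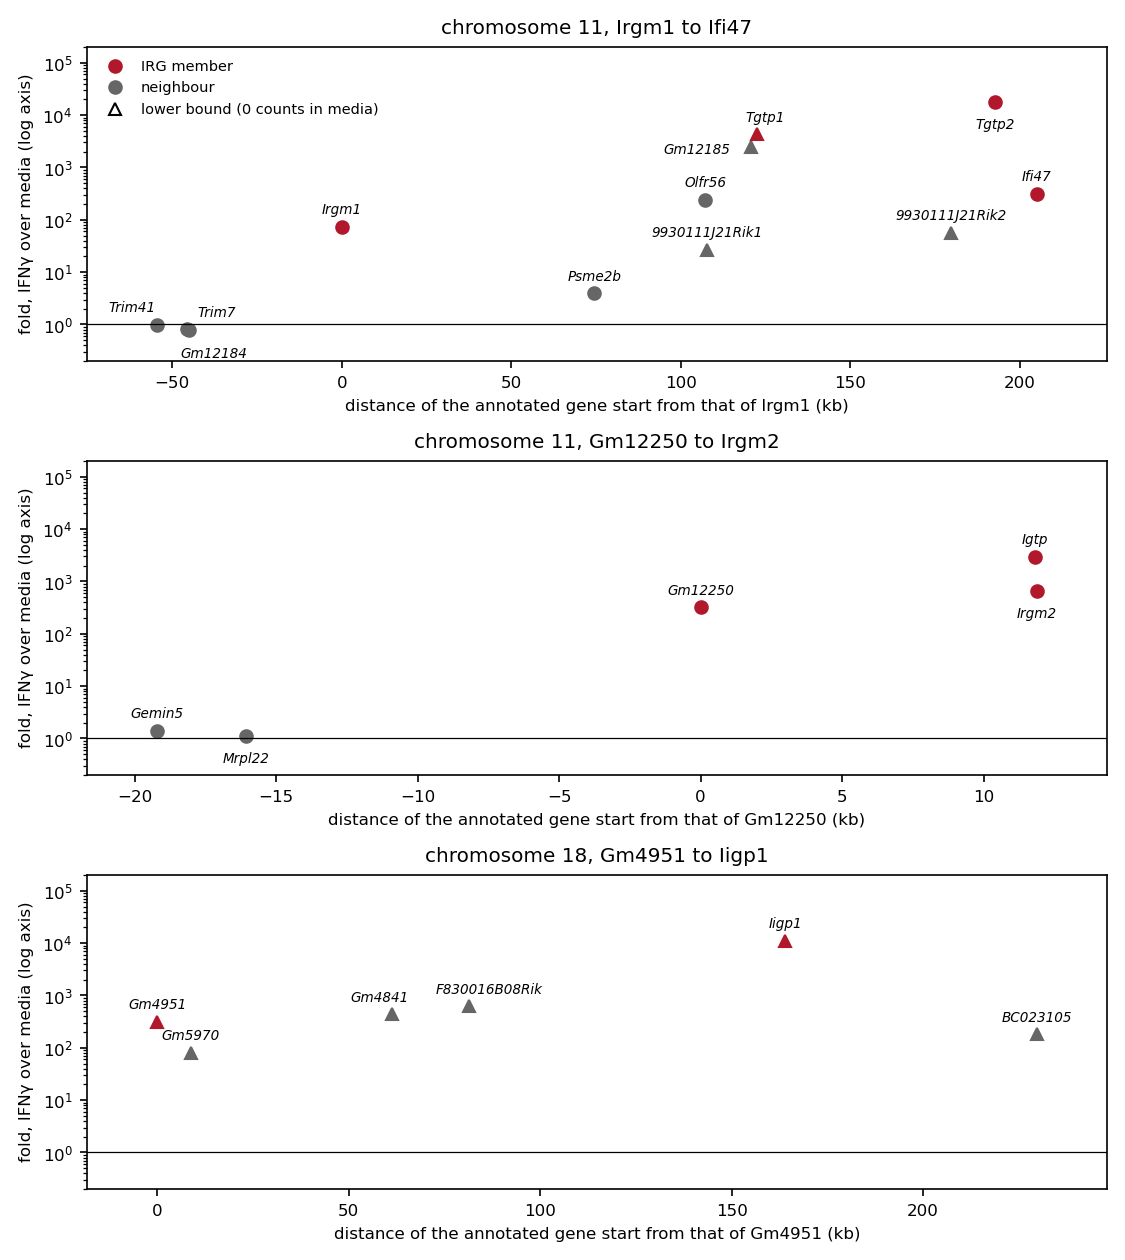
Fold of IFNγ over Media (log axis, from scaled counts) for IRG members (red) and tested neighbours within 50 kb (grey), by distance of the annotated gene start from Irgm1, Gm12250 or Gm4951 in kb. Triangles are lower bounds for genes with 0 counts in Media, and the line marks a fold of 1, near which Trim41, Trim7, Gm12184, Mrpl22 and Gemin5 lie.

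Of 9 other IRG and IRG-like genes listed, 6 were tested and 5 were called higher with IFNγ. These 5 had 0 counts in Media and passed the filter through the IFNγ libraries as well, so the count is a description. The exception among those tested was Irgq, a divergent relative outside the clusters, at 41.9 ± 4.59 CPM with IFNγ and 44.0 ± 4.45 CPM in Media (SD, n = 3 each; log2 fold change -0.07, 95% interval -0.36 to 0.22). Irgc1, a testis gene of the family, had 0 counts in every library. The guanylate-binding proteins, larger GTPases that work with IRGs at vacuoles, had 9 of 10 tested members higher and 0 lower. Over all genes tested, 2.8% were higher and 0.499% lower. Their fitted median log2 fold change was 8.55. Over the Media group Gbp6 had 1 read, Gbp7 20 and Gbp2 324. For Gbp6 and Gbp7 a difference from Media thus came with passing the filter. Media reads of the other members are not reported here, so the count of calls and the fitted median are a description. Gbp6 had 105.5 ± 7.59 CPM with IFNγ and 0.0183 CPM in Media.

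In the signalling that leads to these genes, 10 of 16 listed genes of the IFNγ receptor, JAK-STAT and IRF pathway were higher and 0 lower. Their median log2 fold change was 2.33. Over all genes tested, 2.8% were called higher and 0.499% lower. With the Control number as a block, 12 of the 16 were higher and 1 lower, beside 1237 higher and 936 lower among all 15237 genes tested. The feedback inhibitor Socs1 had a log2 fold change of 6.44 ± 0.14 (SE) and the transcription factor Irf1 5.51 ± 0.16. Of 13 antiviral interferon-stimulated genes, 12 were higher and 0 lower, with a median of 3.69, and 13 were higher with the block. Oasl2 among them had 13 reads over the Media group.

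The ATG8 conjugation and targeting machinery, which in mouse cells is needed for IRG proteins to reach vacuoles properly, had 1 of its 15 listed genes called higher and 0 lower, with a median log2 fold change of 0.06. The 1 gene was Trim21, an interferon-induced ubiquitin ligase, at 86.8 ± 11.5 CPM with IFNγ and 4.90 ± 1.70 CPM in Media (SD, n = 3 each). Ulk1, the kinase that starts autophagy, and the ubiquitin ligase Traf6 were not called (log2 fold changes -0.22 and 0.19). Over all genes tested, 2.8% were called higher and 0.499% lower.

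Among 10367 genes with a mean of at least 5 CPM, the 5 whose profile over the 9 libraries lay closest to the members' median profile were Gbp2, Gm12185, Gbp7, Gbp6 and Parp14. The measure was the root-mean-square difference of centred log2(CPM + 1) values, which was 0.333 for Gbp2, 0.339 for Gm12185, 0.54 for Gbp7, 0.578 for Gbp6 and 0.678 for Parp14. The members' own differences from that median ran from 0.135 for Tgtp1 to 1.69 for Gm4951. Iigp1 (0.743), Gm12250 (0.754), Irgm1 (0.83), Igtp (0.885) and Gm4951 lay farther from it than Parp14. Gbp2 had 1650 ± 479 CPM with IFNγ plus FK866, 1686 ± 306 CPM with IFNγ and 6.33 ± 0.74 CPM in Media (SD, n = 3 each).

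Adding FK866 to IFNγ asks whether blocking NAD salvage alters the response. None of the 9 IRG genes differed between IFNγ plus FK866 and IFNγ at an edgeR adjusted p below 0.05, where 0.0% of the 15237 genes tested were called. At an unadjusted p below 0.05, edgeR had 88 of all genes, DESeq2 61 and limma-voom 85, while with the Control number as a block edgeR had 573 and DESeq2 254. Without any effect, a share of about 0.05 of the 15237 genes would fall there, and each of these counts is lower. The fit without the block counts the differences between Control numbers as error, so its lack of calls is a weak test of FK866. The smallest unadjusted edgeR p of a member was that of Tgtp2, at 0.582 without the block and 0.134 with it. For every member the libraries of both groups overlapped. With the Control number as a block 3 genes were called (0.0197%), none of them an IRG.

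The log2 fold changes of IFNγ plus FK866 over IFNγ lay between -0.06 for Irgm1 and 0.09 for Tgtp2 and Ifi47. Without the block the 95% interval was narrowest for Igtp, from -0.26 to 0.26, and widest for Ifi47, from -0.58 to 0.76. With the block the intervals ran from -0.22 to 0.09 for Irgm1, from -0.13 to 0.12 for Igtp and from -0.18 to 0.29 for Gm4951, the widest. Differences larger than these bounds lie outside the intervals, and smaller ones are not excluded. The smallest difference that this design could detect was not computed. Within the Control numbers Ifi47 was higher with IFNγ plus FK866 in 3 of 3 pairs (log2 differences 0.04, 0.12 and 0.09) and Irgm2 lower in 3 of 3 (-0.01, -0.03 and -0.07). The other 7 members had mixed signs. How many of all genes keep 1 sign over 3 pairs was not counted, so these signs are a description. None of the other IRG-like genes, guanylate-binding proteins, signalling genes, ATG8 machinery or antiviral genes on the lists was called either.

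**Figure D4:**
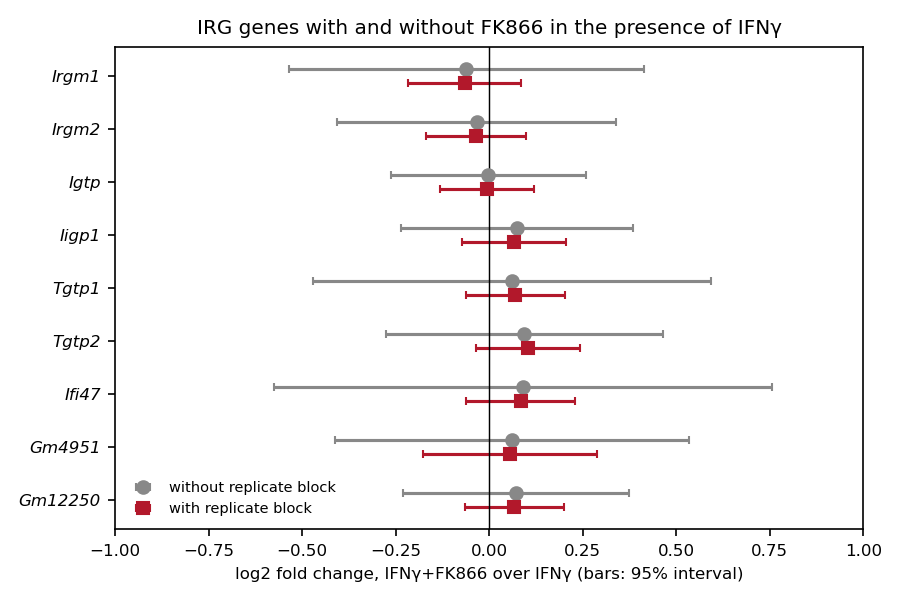
Log2 fold change of IFNγ plus FK866 over IFNγ for the 9 IRG genes, with 95% intervals from the fit without (grey circles) and with (red squares) the Control number as a replicate block. All 18 intervals include 0, and those with the block stay between -0.22 and 0.29.

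IRG levels also differed between the Control numbers, with fitted log2 fold changes of at most 0.81 among the members. These differences were tested over all 9 libraries with treatment as a term in the fit. Each number has 1 library per treatment, and these differently treated libraries served as its replicates. The p-values thus measure the spread around this fit and not that between separate cultures of a number. Iigp1, Tgtp1 and Gm4951 had 0 counts in Media and Tgtp2 had 1, so their values rest on the IFNγ libraries. The numbers differ widely across the transcriptome, so a call here is no rarity: 31.0% of genes were called between Control 4 and 3 (15.8% higher and 15.2% lower in Control 4), 42.0% between Control 5 and 3 (20.8% higher, 21.1% lower) and 31.1% between Control 5 and 4 (15.2% higher, 15.9% lower). Of the 9 members, 3 were higher and 0 lower in Control 4 than in 3, 4 higher and 3 lower in Control 5 than in 3, and 1 higher and 5 lower in Control 5 than in 4. All 3 comparisons share libraries with each other.

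Irgm1, Tgtp1 and Ifi47 were lowest in Control 3 within both IFNγ groups. So was Tgtp2, whose difference between Control 4 and 3 was not called (log2 fold change 0.10). Ifi47 had 210.3 and 202 CPM in the IFNγ plus FK866 libraries of Control 5 and 4, against 119 CPM in that of Control 3. It had 197 and 186 CPM in the IFNγ libraries of Control 5 and 4, against 116 CPM in that of Control 3. No library of Control 3 reached those of the other numbers within either IFNγ group. The log2 fold change was 0.81 ± 0.09 for Control 5 over 3 (SE; edgeR adjusted p = 2.62e-07) and 0.72 ± 0.09 for Control 4 over 3 (2.07e-06), and with DESeq2 the call of Control 4 over 3 was lost (DESeq2 adjusted p = 0.213).

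For Tgtp1 the log2 fold change was 0.62 ± 0.08 for Control 5 over 3 and 0.63 ± 0.08 for Control 4 over 3 (SE). For Irgm1 it was 0.36 ± 0.08 and 0.53 ± 0.08. Irgm1 is the member with enough Media reads to see this without IFNγ as well: 20.3 and 25.0 CPM in the Media libraries of Control 5 and 4, against 13.3 CPM in that of Control 3. These called differences of Irgm1, Tgtp1 and Ifi47 kept their call when any 1 library was left out.

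Irgm2, Igtp and Gm4951 went the other way and were lower in Control 5 than in either other number. For Control 5 over 3 the log2 fold changes were -0.28 ± 0.08 for Irgm2, -0.25 ± 0.07 for Igtp and -0.48 ± 0.14 for Gm4951 (SE), and for Control 5 over 4 they were -0.35 ± 0.08, -0.24 ± 0.07 and -0.42 ± 0.14. Iigp1 (-0.30 ± 0.08) and Gm12250 (-0.30 ± 0.08) were also lower in Control 5 than in Control 4. The 3 calls of lower levels in Control 5 than in 3 fell to 0 without the IFNγ library of Control 3 or without the IFNγ plus FK866 library of Control 5. Their log2 fold changes then were -0.29 and -0.27 for Irgm2, -0.24 and -0.19 for Igtp, and -0.47 and -0.43 for Gm4951, all with the same sign as over the full set of libraries. The 5 calls of lower levels in Control 5 than in 4 fell to 1 without the IFNγ plus FK866 library of either number and to 3 without the IFNγ library of either number, and Irgm2 was the member called in each of these fits. With DESeq2, 2 of the 5 were called, and Irgm2 was not among them (DESeq2 adjusted p = 0.0516). Irgm2 also lost its call for Control 5 over 3 with DESeq2 (DESeq2 adjusted p = 0.145). Scaling by library totals alone moved the background as well, to 1534 genes higher and 3592 lower in Control 5 than in Control 4, against 2311 and 2422 with TMM.

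Tgtp1 and Tgtp2 did not move in step between numbers. The ratio of Tgtp2 to Tgtp1 counts was 1.43, 1.18 and 1.67 with IFNγ plus FK866 in Control 5, 4 and 3, and 1.40, 1.12 and 1.67 with IFNγ. Libraries of the same number had like ratios in both treatments. Tgtp2 was higher in Control 5 than in Control 3 (log2 fold change 0.39 ± 0.08, SE; not called without the IFNγ library of Control 5, at 0.27) and than in Control 4 (0.29 ± 0.08; not called without the IFNγ library of Control 4, at 0.21, or of Control 5, at 0.18). Summed over both genes, the log2 fold change was 0.48 for Control 5 over 3 (edgeR adjusted p = 8.4e-05), 0.33 for Control 4 over 3 (0.00445) and 0.16 for Control 5 over 4 (0.164, not called). The split of shared reads limits what the ratio can show, and its part in these values was not tested.

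**Figure D5:**
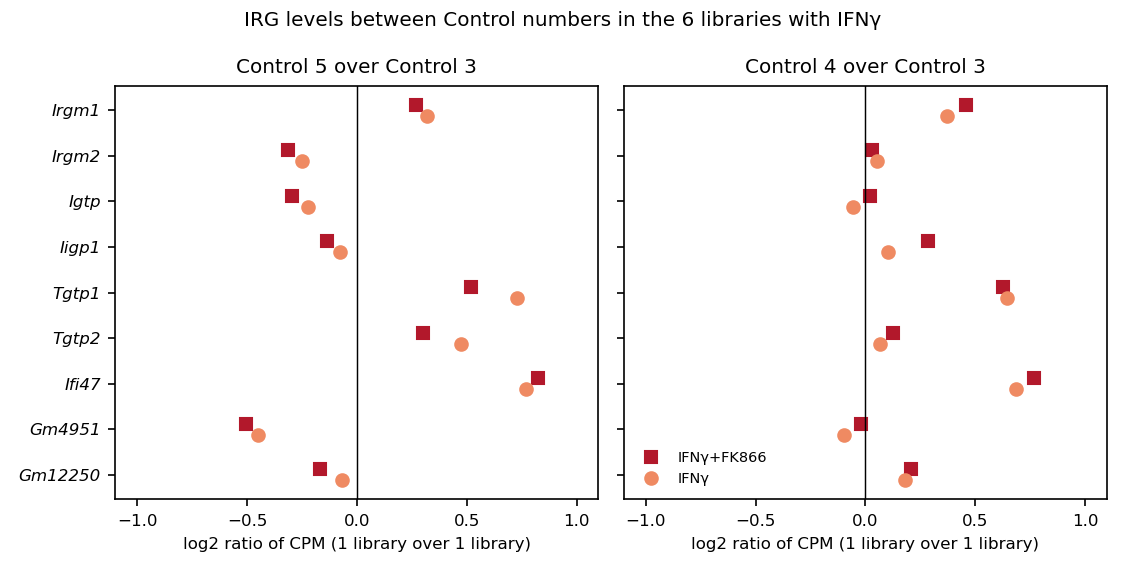
Log2 ratio of CPM between Control numbers for the 9 IRG genes, Control 5 over 3 (left) and Control 4 over 3 (right), with 1 point for IFNγ plus FK866 (squares) and 1 for IFNγ (circles). Irgm1, Tgtp1, Tgtp2 and Ifi47 lie right of 0 in both panels in both treatments. Irgm2, Igtp, Gm4951, Iigp1 and Gm12250 lie left of 0 in the Control 5 panel.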

How the data were processed

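The authors deposited raw counts of reads per Ensembl gene and library. The submitters' processing notes name cutadapt 1.16, STAR 2.7.6a, featureCounts 1.6.3, DESeq2 1.30.1, GRCm38 and mm10. Strand setting, annotation release and the handling of multiply matching reads were not given in the sources used here. Symbols were found for 55141 of 55487 genes. The edgeR 4.0.16 quasi-likelihood test (R 4.3.3) was run with TMM scaling and filterByExpr on group means of all 9 libraries. Benjamini-Hochberg adjustment covered 15237 genes, with 99.89% of counts. Alternatives used DESeq2 1.42.0, voom in limma 3.58.1, other scalings, no filter, 2 groups, a replicate block and leaving out each library. The scripts were tested on simulated data. The members and lists were chosen with earlier results of these data known. Named genes are the members, the 3 with the smallest p of each list, tested neighbours within 50 kb and the 5 closest profiles; Irgc1 and Irgq were named after their values were seen. Some genes that this rule or the marker lists take in are not reported here.

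The Control numbers in the titles pair the libraries. Deviations from the group mean correlated at 0.593 to 0.759 in 9 pairs with equal numbers and at -0.509 to -0.14 in 18 pairs with unequal numbers. The deviations of a gene sum to 0 over each group. Positive values for equal numbers therefore force negative ones on average for unequal numbers, which are no separate sign of pairing. Libraries of a group differed beyond counting noise (chi-square 21.6 to 37.2 per degree of freedom), so none were merged. Folds against 0 counts are bounds at 3 counts over the group.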

Additional observations from a re-analysis of the deposited data

How the results depend on the processing

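All 9 members were called higher than Media in both IFNγ groups, and 0 differed between IFNγ plus FK866 and IFNγ, under each alternative run (8 of 8 where Tgtp1 and Tgtp2 were summed). With the replicate block the count of all genes called was 1237 higher and 936 lower for IFNγ over Media, 1299 and 1160 for IFNγ plus FK866 over Media, and 2 and 1 for IFNγ plus FK866 over IFNγ; without it these were 427 and 76, 421 and 91, and 0 and 0. The block changed no call of a member. DESeq2 gave 180 and 198 lower than Media, DESeq2 with the block (added after seeing the data) 1079 and 759, 1119 and 906, and 1 higher with FK866, and a fit of 2 groups 59 lower with IFNγ plus FK866 than in Media. Leaving out 1 library gave 26 to 68 and 34 to 75 genes lower than Media.

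Between Control 4 and 3, 3 members were higher, and 5 with library totals alone, with the 6 IFNγ libraries alone or without the Media library of Control 5 (3 to 5 over all left-out libraries). Lower members in Control 5 than in 3 numbered 0 to 3, and in Control 5 than in 4 they numbered 1 to 6, or 2 with DESeq2. Higher members in Control 5 than in 4 numbered 0 to 1, and 0 with Tgtp1 and Tgtp2 summed. Over all genes, 1534 were higher in Control 5 than in 4 with library totals alone, 1506 to 2624 with 1 library left out, and 1556 to 2734 were lower.

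Changes of sign occurred only in log2 fold changes that were not called. For IFNγ plus FK866 over IFNγ, leaving out 1 library gave -0.17 to 0.05 for Irgm1, -0.12 to 0.07 for Irgm2, -0.07 to 0.09 for Igtp, -0.05 to 0.16 for Iigp1, -0.13 to 0.23 for Tgtp1, -0.11 to 0.31 for Ifi47, -0.07 to 0.21 for Gm4951 and -0.03 to 0.16 for Gm12250. Igtp was at 0.03 and Irgm2 at 0.00 with library totals, and Igtp at 0.00 with RLE size factors, DESeq2 or 2 groups. Control 4 over 3 gave 0.06 for Igtp and 0.01 for Gm4951 with library totals and -0.07 to 0.04 for Igtp with 1 library left out, and Control 5 over 4 gave -0.12 to 0.09 for Tgtp1. For IFNγ over Media, Trim41 was at -0.03 with library totals, and leaving out 1 library gave -0.04 to 0.06 for Trim41 and -0.64 to 0.09 for Trim7. The cause was not tested. Depth limits Media levels, since 0 counts allow up to 0.188 CPM.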

Other observations

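Calls between Control numbers were also counted for defence genes outside the IRG list. Of 13 antiviral interferon-stimulated genes, 11 were lower and 1 higher in Control 5 than in Control 4, with a median log2 fold change of -1.13, beside -0.01 over all genes tested, of which 15.9% were lower and 15.2% higher. The same list had 2 higher and 8 lower in Control 5 than in Control 3, and 4 higher and 1 lower in Control 4 than in Control 3. Of 10 tested guanylate-binding proteins, 0 were higher and 4 lower in Control 5 than in Control 4, 2 higher and 6 lower in Control 5 than in Control 3 (20.8% and 21.1% of all genes), and 2 higher and 0 lower in Control 4 than in Control 3 (15.8% and 15.2%). The guanylate-binding proteins higher in Control 4 than in Control 3 thus lay near the share of all genes. The IRG members had a median of -0.24 between Control 5 and 4. Gm4841, next to Gm4951, had 27.7, 23.7 and 41.8 CPM in the IFNγ plus FK866 libraries of Control 5, 4 and 3, and 23.4, 19.1 and 36.3 CPM in the IFNγ libraries of the same numbers, so that its highest library was that of Control 3 in both treatments.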
